A study of Mus musculus with 4 samples.

Results

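A set of 47 genes of DNA replication was examined: the genes that license origins, the replicative helicase, the polymerases, the sliding clamp with its loader and the single-strand binding protein, and genes of Okazaki fragment maturation and nucleotide supply. They were chosen by name from textbook function, with earlier results of these data known. All 47 were found among the 22690 genes of the deposited table. All 47 also had a mean normalized read count of at least 10 and so were among the 14480 genes tested.

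RNA was sequenced from retinal cells of C57BL/6 mice at postnatal day 2, sorted by flow for 4N DNA, that is, cells that have copied their genome and have not yet divided. The wild-type group holds 2 libraries of GFP-negative cells, and the other group holds 2 libraries of GFP-positive cells labelled Casz1 cKO, a conditional knockout of that transcription factor gene. GFP status and genotype change together between the groups, so that they cannot be told apart. The promoter or Cre driver behind the knockout and the GFP, the number of animals behind each library and whether animals were pooled are not stated in the sources used here. The design text speaks of 2 independent experiments. Nothing else says that libraries of a group came from separate animals, so p-values measure only the spread between these libraries, which may be technical. Column names end in 1 of 2 numeric tags, called A and B here, and each tag occurs once per group, so the libraries are written WT-A, WT-B, cKO-A and cKO-B.

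Replication is prepared in G1, when the origin recognition complex, Cdc6 and Cdt1 load the Mcm2 to Mcm7 hexamer onto DNA, and geminin (Gmnn) later blocks reloading by binding Cdt1. In S phase Cdc45 and the GINS complex activate the hexamer, polymerase alpha with primase lays primers, and polymerases delta and epsilon extend them with the clamp Pcna. In the newborn mouse retina progenitors still divide while late-born cell types such as rods are produced, and a 4N gate takes cells that have passed through S phase.

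cKO-A was the shallowest and stood apart. It had 22326119 reads in genes, against 75832360 in WT-A, 83753377 in WT-B and 89473701 in cKO-B. Across genes, its Pearson correlation with the rest was 0.902 to 0.918, while the others correlated with each other at 0.988 to 0.993. Casz1 itself (ENSMUSG00000028977), the targeted gene, had normalized read counts of 13162 and 11995 in WT-A and WT-B and 8687 and 10772 in cKO-A and cKO-B. Both cKO values were below both wild-type values, with a log2 fold change of −0.38 and a limma adjusted p of 0.771. Because reads are summed over all exons, this level is no measure of the deletion.

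Replication genes are a classic class of targets of E2F transcription factors, so the promoters of 6 members are given: 4 helicase genes, and the genes with the highest and the lowest fold change (Rrm1 and Orc1). RefSeq promoter windows on GRCm38.p6 (250 bases before to 50 after the start, 300 in all) were matched by symbol for 39 of the 47 genes, which have 47 windows in all. In 34 of the 47 windows, bases 11 to 40 after the start lay in a transcript of the gene on the given strand. The starts of the other windows did not pass this check. The E2F-type letters searched were TTCCCGC, the variant TTCGCGC, the variant TTGCCGC and finally TTGGCGC. The CCAAT box was searched by its name's letters, and every motif on both strands, with overlapping matches counted. The bases just before the start are printed 5′ to 3′ on the gene's strand, with the matches to either motif in capitals.
Mcm2, chr6:88898781-88898955, minus strand: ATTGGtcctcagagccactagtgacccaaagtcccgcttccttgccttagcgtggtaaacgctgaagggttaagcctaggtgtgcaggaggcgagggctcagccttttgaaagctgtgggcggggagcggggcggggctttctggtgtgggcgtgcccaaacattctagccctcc
Mcm3, chr1:20820313-20820487, minus strand: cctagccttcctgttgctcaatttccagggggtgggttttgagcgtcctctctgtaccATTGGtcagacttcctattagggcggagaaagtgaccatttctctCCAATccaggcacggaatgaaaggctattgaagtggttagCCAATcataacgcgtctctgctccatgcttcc
Mcm5, chr8:75109334-75109508, plus strand: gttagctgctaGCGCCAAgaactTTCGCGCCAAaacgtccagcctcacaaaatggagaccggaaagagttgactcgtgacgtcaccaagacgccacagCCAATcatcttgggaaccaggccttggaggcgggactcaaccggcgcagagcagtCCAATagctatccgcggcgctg
Mcm6, chr1:128359706-128359880, minus strand: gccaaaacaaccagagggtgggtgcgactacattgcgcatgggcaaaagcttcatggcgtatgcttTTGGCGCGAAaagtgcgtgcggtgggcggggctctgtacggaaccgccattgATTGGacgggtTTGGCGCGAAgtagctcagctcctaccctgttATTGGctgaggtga
Rrm1, chr7:102441520-102441694, plus strand: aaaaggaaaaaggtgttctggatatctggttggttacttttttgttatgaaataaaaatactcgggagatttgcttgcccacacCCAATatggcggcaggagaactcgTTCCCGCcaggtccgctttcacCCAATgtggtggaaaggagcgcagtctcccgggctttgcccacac
Orc1, chr4:108579279-108579453, plus strand: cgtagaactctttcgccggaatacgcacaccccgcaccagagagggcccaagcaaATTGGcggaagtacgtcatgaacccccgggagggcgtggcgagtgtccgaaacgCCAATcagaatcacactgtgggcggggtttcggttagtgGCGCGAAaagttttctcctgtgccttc
Mcm6 carries 2 copies of a run in which TTGGCGC overlaps GCGCGAA, the reverse complement of TTCGCGC. Mcm5 carries 3 E2F-type matches, of which 2 overlap, and Rrm1 and Orc1 carry 1 each. The Mcm2 window holds no E2F-type match, and in the Mcm3 window such letters begin only at bases 20, 40 and 43 after the start. These are matches of letters and not measured binding.

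Among the matched genes, 25 of 39 (64.1%) held an E2F-type match in at least 1 window, against 10.86% of all 27025 genes with a window and 19.26% of the 10571 tested genes with one. A CCAAT box was held by 24 of 39 (61.5%), against 41.1% of all genes with a window. The members with an E2F-type match had a median log2 fold change, cKO over wild type, of 0.13 (17 of 25 positive), and the 14 without had a median of 0.17 (11 positive). For the CCAAT box the medians were 0.18 with (18 of 24 positive) and 0.11 without (10 of 15 positive). Orc1 and Rrm1, at the ends of the range of fold changes, both held an E2F-type match and a CCAAT box. No difference between these groups was tested.

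No replication gene passed the test between the groups, and most were slightly higher in cKO. Fold changes are differences of group means on the log2(normalized count + 1) scale. Limma with Benjamini-Hochberg adjustment over all 14480 genes called 0 of the 47 at an adjusted p under 0.05, where the share called among all genes was 0 percent. The lowest adjusted p was 0.771. On the recovered reads edgeR and DESeq2 also called 0 of the 47. None had an unadjusted p under 0.05 (the lowest was 0.0941, for Mcm3), against 1.89% of all genes. The log2 fold change was positive for 35 of the 47 and negative for 12, where 46.7% of all genes were positive. The median was 0.18 for the members, with a range of −0.70 for Orc1 to 0.50 for Rrm1, and −0.03 for all genes. Both cKO libraries lay above both wild-type libraries for 24 of the 47, against 17.2% of all genes. For 0 of the 47 did both lie below, against 22.3% of all genes. Among the 10026 genes tested in the members' own range of mean levels (505 to 27108), these shares were 19.2% above and 19.8% below. Of these genes 51.8% had a positive log2 fold change, and their median was 0.01. In the authors' deposited table the lowest adjusted p of a member was 0.999884.

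**Figure D1:**
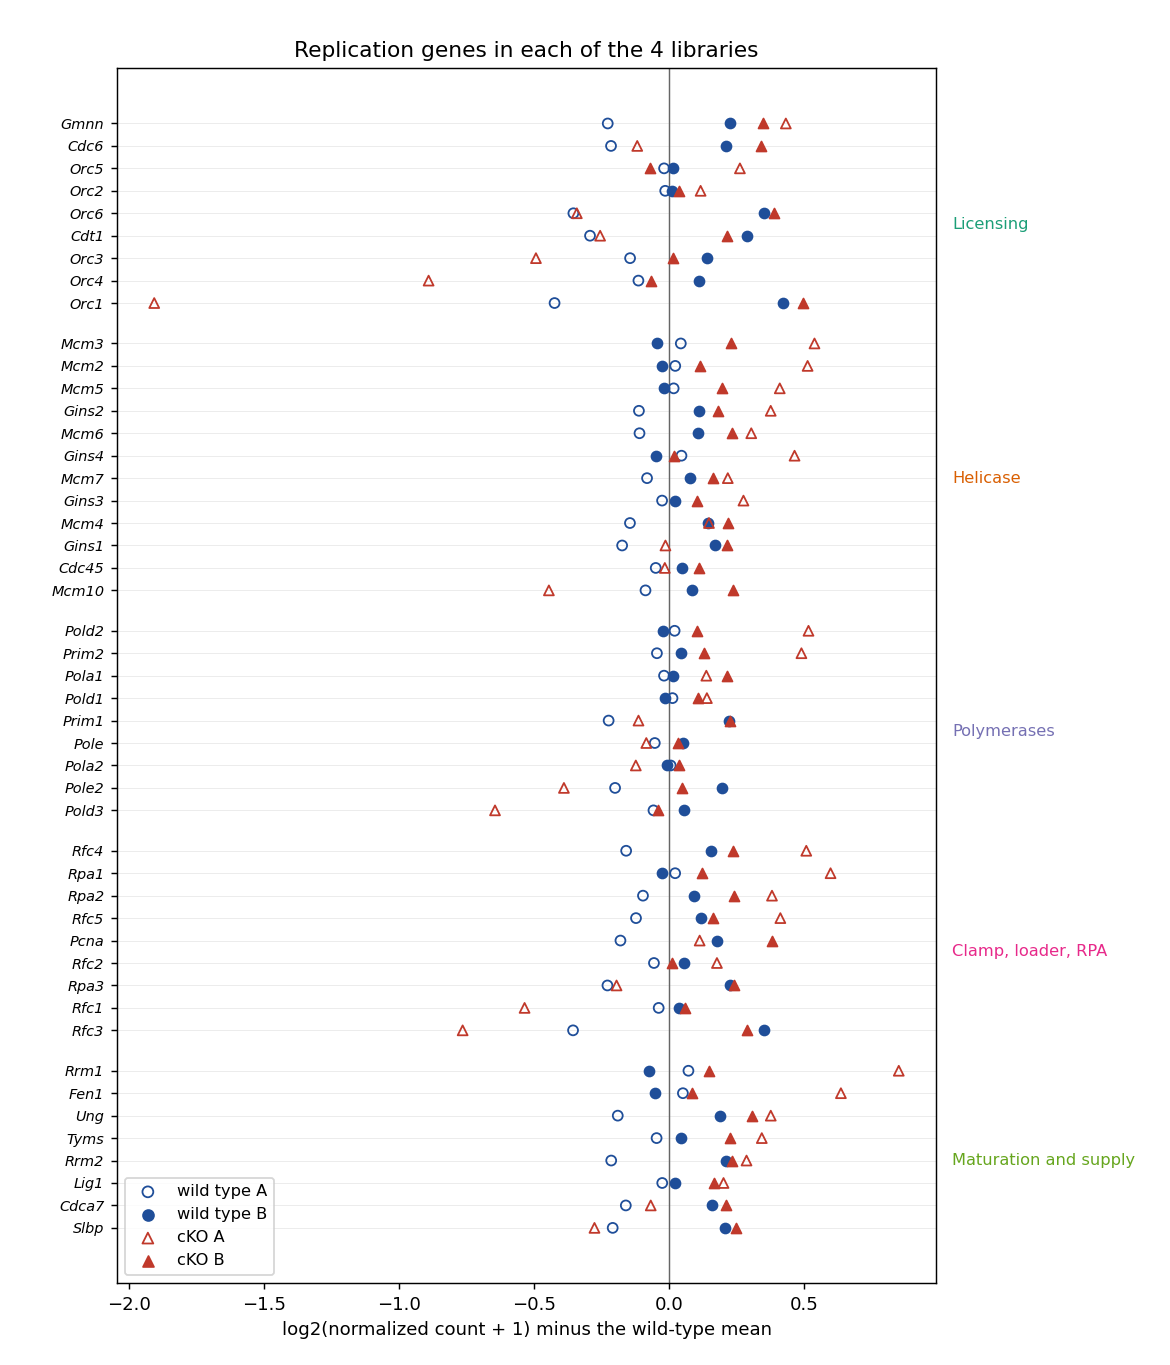
Each row is 1 replication gene, and the x axis is log2(normalized count + 1) minus the mean of the wild-type libraries. Circles are wild type, triangles are cKO, open symbols are tag A and filled symbols tag B. Both triangles lie to the right of both circles for 24 of the 47 genes, among them all of Mcm2 to Mcm7, and the open triangle of Orc1 lies farthest to the left.

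The members together took 0.537% of reads in WT-A, 0.600% in WT-B, 0.619% in cKO-A and 0.629% in cKO-B. Both cKO shares were above both wild-type shares, and the 95% Wilson intervals, which cover counting error only, did not overlap (0.599 to 0.602% in WT-B and 0.616 to 0.623% in cKO-A). The gap between the wild-type libraries was larger than the gap from the upper of them to either cKO library. In bulk samples of this kind, a change in the share of cells of a type and a change in RNA per cell cannot be told apart.

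Within tags the members pointed the same way, and the difference was larger at tag A. The ratio of cKO to wild type was above 1 at both tags for 33 of the 47, against 32.7% of all genes and 37.8% of those in the members' range of levels. It was below 1 at both tags for 6 and of opposite direction for 8. The median log2 ratio was 0.23 for tag A and 0.07 for tag B, and over all genes it was −0.05 and −0.00. The ratio was larger at tag A for 32 of the 47. Across the 47 genes the ratios at the tags had a Spearman correlation of 0.583, and across all genes it was 0.455. This is a description across genes, which are not independent replicates.

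**Figure D2:**
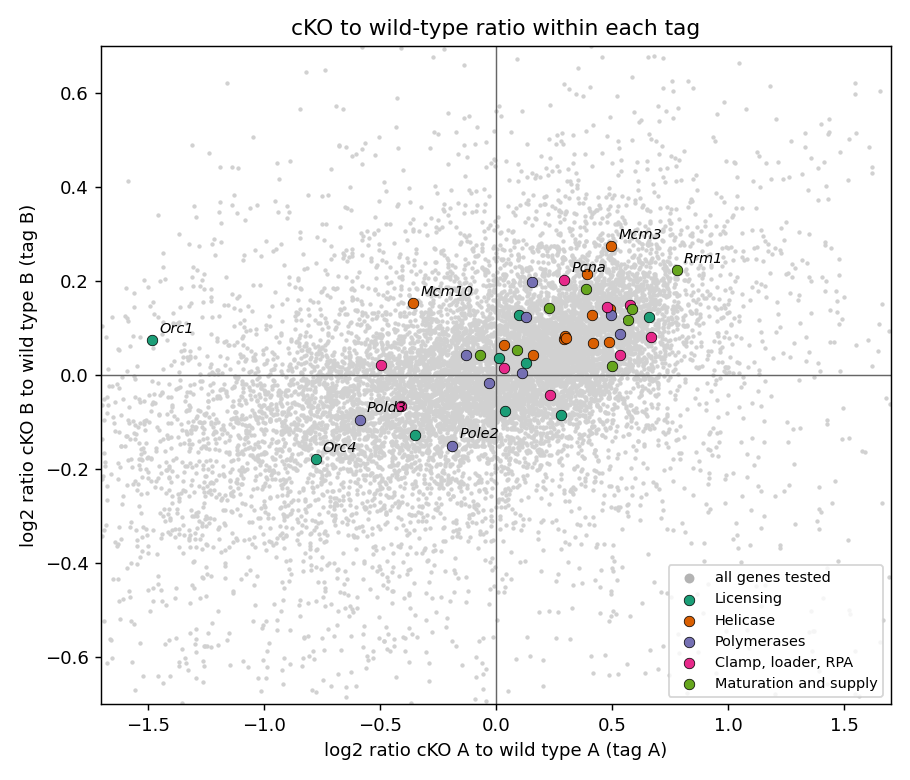
Each point is 1 gene, with the log2 ratio of cKO to wild type at tag A on the x axis and at tag B on the y axis (the y scale is narrower). Grey points are all genes tested, of which 2077 lie outside the axes, and coloured points are the replication genes by role. Most coloured points lie at the upper right, Rrm1 farthest right, and Orc1 lies far left at tag A and near 0 at tag B.

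The libraries of 1 group also differed from each other by as much as the groups did. Wild-type library B was above WT-A for 37 of the 47 members, with a median log2 difference of 0.17, about as large as the median between the groups. In cKO, library B was above A for 22, with a median of −0.04. The difference between the groups was larger than the difference within either group for 14 of the 47 (29.8%), against 15.3% of all genes: Mcm3, Mcm5, Mcm6, Mcm7, Orc2, Gins2, Gins3, Pola1, Pold1, Rfc4, Rfc5, Rpa2, Lig1 and Tyms. Across the 47 genes the B to A differences of wild type and cKO had a Spearman correlation of 0.679, and across all genes it was 0.35.

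**Figure D3:**
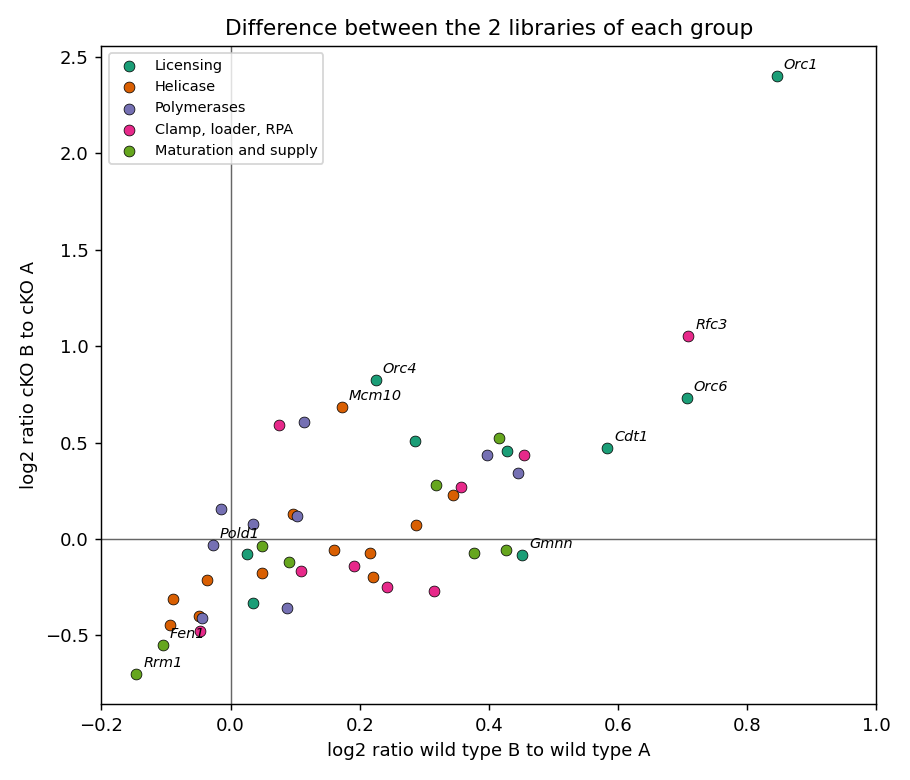
Each point is 1 replication gene, with the log2 ratio of library B to library A in wild type on the x axis and in cKO on the y axis. Points to the right of 0 are higher in WT-B, as 37 of the 47 are, and Orc1, Rfc3, Orc6 and Cdt1 are higher in library B of both groups.

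The licensing genes did not share a direction. Of the 9 genes 5 had a positive log2 fold change, the median was 0.02, both cKO libraries were above both wild-type libraries for 2 (Gmnn and Orc2), a share near the 17.2% of all genes, and 0 passed limma. All 9 were higher in WT-B than in WT-A. Their share of reads was 0.0511% and 0.0671% in WT-A and WT-B and 0.0482% and 0.0650% in cKO-A and cKO-B, so it followed the tag and not the group. Of the 6 subunits of the origin recognition complex, 3 were higher and 3 lower in cKO, with a median of −0.11.

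Orc1 (ENSMUSG00000028587, chr4:108579423-108614833 of GRCm38, plus strand), the largest subunit and an ATPase, had normalized counts of 400.1 and 719.9 in WT-A and WT-B and 142 and 758 in cKO-A and cKO-B. The cKO libraries were at once the lowest and the highest of the 4, so the groups overlapped. The log2 fold change was −0.70 (standard error 0.81, limma adjusted p = 0.78), made up of −1.48 for tag A and 0.07 for tag B. The count in cKO-A rests on 51 reads, the fewest of any member. Orc4, another ATPase-family subunit, had 2917 and 3408 in WT-A and WT-B and 1702 and 3011 in cKO-A and cKO-B. Only cKO-A was clearly low, and cKO-B lay between the wild-type values. Its log2 fold change was −0.48 (standard error 0.31).

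Gmnn, the inhibitor of relicensing, which accumulates in S and G2, had 3185 and 4357 in WT-A and WT-B and 5032 and 4748 in cKO-A and cKO-B. Both cKO values were the higher ones, but WT-B was closer to them than to WT-A. The log2 fold change was 0.39 (standard error 0.22, limma adjusted p = 0.771). Gmnn had the highest level per kilobase of exons in this group, a mean normalized count of 2956 per kilobase over the 4 libraries. Cdt1, its target and the loader of the hexamer, had a log2 fold change of −0.02, and Cdc6, the ATPase that acts with it, had 0.11. The ratio of Gmnn to Cdt1 levels per kilobase was 1.08 and 0.989 in WT-A and WT-B and 1.67 and 1.14 in cKO-A and cKO-B. The transcripts of inhibitor and target were thus near equal per kilobase in wild type, and the ratio was highest in cKO-A.

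Among the role groups, the helicase genes had the largest share of higher values. Of the 12 genes 11 had a positive log2 fold change, the median was 0.22, and both cKO libraries were above both wild-type libraries for 8, against 17.2% of all genes. The median log2 ratio was 0.35 for tag A and 0.08 for tag B, and all 12 were positive at tag B. None passed limma. For Mcm2 to Mcm7, the 6 subunits of the hexamer, all 6 were higher in cKO at both tags, with no overlap between the groups. Their log2 fold changes ran from 0.18 to 0.38 with a median of 0.29.

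Mcm2 had normalized counts of 16423 and 15883 in WT-A and WT-B and 23070.4 and 17517 in cKO-A and cKO-B. Mcm3 (ENSMUSG00000041859, chr1:20802968-20820312 of GRCm38, minus strand), with the lowest p of all members, had 13747 and 12920.3 in the wild-type libraries and 19377 and 15631 in the cKO libraries, in the same order. Mcm5 had 12630.2 and 12314 in the wild-type libraries and 16585 and 14295 in the cKO libraries. In these 3 genes WT-A and WT-B lay close together, both cKO libraries were above them and cKO-A was the highest. The log2 fold changes were 0.32, 0.38 and 0.30, with standard errors of 0.20, 0.19 and 0.18 (limma adjusted p = 0.771 for each).

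Mcm4 had 11902 and 14525 in WT-A and WT-B and 14579 and 15319 in cKO-A and cKO-B. Mcm6 had 21159 and 24586 in the wild-type libraries and 28192 and 26849 in the cKO libraries, in the same order. Mcm7 had 18812 and 21028 in the wild-type libraries and 23146 and 22273 in the cKO libraries. Here WT-B was above WT-A in all 3 genes, and for Mcm4 it lay only just below cKO-A. The log2 fold changes were 0.18, 0.27 and 0.19, with standard errors of 0.19, 0.18 and 0.18 (limma adjusted p = 0.771 for each).

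The 6 subunits join the hexamer in equal numbers, while their transcripts differed. The highest level per kilobase among them was 1.92 and 2.31 times the lowest in WT-A and WT-B and 1.82 and 2.29 times in cKO-A and cKO-B. This spread was larger at tag B in both groups, but it rests on the length of all exons. Mcm2, the lowest of the 6 by that length, had a mean of 2620 normalized counts per kilobase. By its longest transcript Mcm2 had 5216, above Mcm3 at 4494 and below Mcm7 at 7196. By the length of all exons Mcm6 was the highest of the helicase genes, at a mean of 5400.1 normalized counts per kilobase (SD 659 over the 4 libraries).

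The partners that turn the loaded hexamer into a moving helicase were also mostly higher. The GINS genes had log2 fold changes of 0.10 (Gins1), 0.28 (Gins2), 0.19 (Gins3) and 0.24 (Gins4), and Cdc45 had 0.05. Gins2 and Gins3 were higher in both cKO libraries, and the other 3 overlapped. Mcm10, which helps to activate the assembled helicase, was the only helicase gene with a negative value, −0.10, being −0.36 at tag A and 0.15 at tag B. For Gins2, 67.3% of the exon bases overlap exons of Gse1 on the opposite strand, and since the strand setting of the counting is not stated in the sources used here, reads of overlapping genes cannot be told apart. The same holds for 29.8% of the exon bases of Orc2, which overlap Nif3l1. Opposite-strand exons also overlap 15.1% of the exon bases of Rfc2, 12.7% of Rfc4, 10.8% of Orc1 and 10.7% of Rfc5. Smaller shares are overlapped in some other members.

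The polymerase genes showed no common direction. Of the 9 genes 5 had a positive log2 fold change, the median was 0.06, and both cKO libraries were above both wild-type libraries for 4 (Pola1, Prim2, Pold1 and Pold2), against 17.2% of all genes. Pold3, an accessory subunit of polymerase delta, had 5582 and 6037 in WT-A and WT-B and 3716 and 5654 in cKO-A and cKO-B. Its low value came from cKO-A, and cKO-B lay between the wild-type values. The log2 fold change was −0.34 (standard error 0.25, limma adjusted p = 0.771).

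Pold2, the subunit of polymerase delta that links the catalytic subunit to Pold3, had 5480.0 and 5317 in WT-A and WT-B and 7728 and 5811 in cKO-A and cKO-B. Both cKO values were above both wild-type values, with cKO-A far above the rest and a log2 fold change of 0.31 (standard error 0.21). It had the highest level per kilobase of the polymerase genes, 3209 on average. Prim2, the large primase subunit, had 3271 and 3476 in WT-A and WT-B and 4741 and 3695 in cKO-A and cKO-B. Both cKO values were again the higher ones, cKO-A the highest, with a log2 fold change of 0.31.

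The catalytic subunits also differed among themselves. Pold1, the catalytic subunit of polymerase delta, had a log2 fold change of 0.13, with 0.13 and 0.12 at tags A and B. Pola1, that of polymerase alpha, had 0.18, with 0.16 and 0.20 at tags A and B. Pole, that of the leading-strand polymerase epsilon, had −0.02, and its subunit Pole2 had −0.17. Prim1, the catalytic subunit of primase, had 0.06 and Pola2, an accessory subunit of polymerase alpha, −0.04. Prim1 had 5277 and 7185 in WT-A and WT-B and 5697 and 7211 in cKO-A and cKO-B, so that it followed the tag. Subunits of 1 polymerase thus lay on both sides of 0 for polymerase delta and also for polymerase alpha, where Pola2 was close to 0. None of these passed limma.

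Among the clamp, the clamp loader and the single-strand binding protein RPA, 7 of 9 genes had a positive log2 fold change, with a median of 0.25, and both cKO libraries were above both wild-type libraries for 4 (Rfc4, Rfc5, Rpa1 and Rpa2), against 17.2% of all genes. Pcna (ENSMUSG00000027342, chr2:132249162-132253314 of GRCm38, minus strand), the sliding clamp, had 15692 and 20108 in WT-A and WT-B and 19231 and 23148 in cKO-A and cKO-B. Library B was the higher one in each group, and WT-B lay above cKO-A, so the groups overlapped. The log2 fold change was 0.25 (standard error 0.21, limma adjusted p = 0.771). Pcna had the highest level per kilobase of all 47 genes, 8144 normalized counts on average (SD 1278 over the 4 libraries). Pcna, like Tyms, has pseudogene copies in the annotation, with which its reads could be shared.

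The clamp loader subunits went in both directions. Rfc4 had 2641 and 3286 in WT-A and WT-B and 4194 and 3474 in cKO-A and cKO-B. The groups did not overlap, although WT-B and cKO-B lay close together, and the log2 fold change was 0.37 (standard error 0.21). Rfc5 had 0.29 and Rfc2 had 0.10, while Rfc1, the large subunit, and Rfc3 had −0.24 each. For Rfc1 that value came from cKO-A, with −0.50 at tag A and 0.02 at tag B. Rfc3 was higher in library B of both groups, by 0.71 in wild type and 1.05 in cKO on the log2 scale.

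Rpa1, the large DNA-binding subunit of RPA, had 7911 and 7655 in WT-A and WT-B and 11791 and 8483 in cKO-A and cKO-B. Both cKO values were above both wild-type values, cKO-A by far the more, and the log2 fold change was 0.36 (standard error 0.22). Rpa2, the regulatory subunit, had a log2 fold change of 0.31 with no overlap between the groups, and the smallest subunit, Rpa3, had 0.02. None of the 9 genes passed limma.

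Genes of Okazaki fragment maturation, repair and nucleotide supply had the highest median of the 5 role groups. Of the 8 genes 7 had a positive log2 fold change, the median was 0.27, and both cKO libraries were above both wild-type libraries for 6, against 17.2% of all genes. The median log2 ratio was 0.45 for tag A, against 0.13 for tag B. Rrm1 (ENSMUSG00000030978, chr7:102441695-102469771 of GRCm38, plus strand), the large subunit of ribonucleotide reductase, which makes deoxyribonucleotides, had 23194 and 20961 in WT-A and WT-B and 39804 and 24474 in cKO-A and cKO-B. Both cKO libraries were above both wild-type libraries, but cKO-A was far above the other 3, and cKO-B was closer to WT-A than to it. The wild-type mean was 22078 ± 1579 (SD, n = 2) and the cKO mean 32139 ± 10839.7 (SD, n = 2). The log2 fold change was 0.50 (standard error 0.27, limma adjusted p = 0.771), with 0.78 at tag A and 0.22 at tag B.

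Rrm2, the small subunit of the same enzyme, whose supply is known to follow S phase, had 13320.3 and 17898 in WT-A and WT-B and 18854 and 18151 in cKO-A and cKO-B. Only WT-A was low, and the other 3 lay close together, with a log2 fold change of 0.26 and a standard error of 0.21. Rrm2 had the highest level per kilobase of this group, 6155 on average. The ratio of Rrm1 to Rrm2 per kilobase was 0.438 and 0.295 in WT-A and WT-B and 0.531 and 0.339 in cKO-A and cKO-B. The ratio was higher at tag A than at tag B in both groups and higher in cKO at both tags.

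Fen1, the flap endonuclease that trims Okazaki fragments, had 4940.2 and 4593 in WT-A and WT-B and 7413 and 5063 in cKO-A and cKO-B. Both cKO values were the higher ones, cKO-B by little, and the log2 fold change was 0.36 (standard error 0.23). Of its exon bases 78.8% overlap the antisense gene Gm10143, so its value is uncertain in the way given for Gins2. Lig1, the ligase that seals the fragments, had 0.18, and Tyms, thymidylate synthase, had 0.29. Ung, which removes uracil from DNA, had 0.34, and all 3 had both cKO libraries above both wild-type ones. Cdca7, a chromatin factor of dividing cells, had 0.07, and Slbp, which binds the stem loop of histone mRNAs, had −0.01, with 8467 and 11291 in the wild-type and 8080.4 and 11626 in the cKO libraries. Both overlapped between the groups.

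Levels differed far more between genes than between libraries. Per kilobase of exons, Pcna stood first, followed by Rrm2 (6155), Mcm6 (5400.1), Mcm7 (4816) and Mcm3 (4109). At the low end were Orc1 (145), Orc5 (287), Mcm10 (367) and Orc4 (370.0). Mcm10 and Orc4 lay within 1 SD of each other over the 4 libraries, and of the 5 highest only Pcna stood from the next by more than the larger SD of the pair. Origin recognition genes held 3 of the 4 lowest places. Taking the longest transcript as the length in place of all exons moved 34 of the 47 levels by more than their SD. Pcna and Rrm2 then stayed first and second, Mcm7 stood above Mcm6, and the 4 lowest were Orc1, Orc5, Gins3 and Mcm10, so 2 origin recognition genes. Across the 47 genes, mean level and log2 fold change had a Spearman correlation of 0.367, and across all genes 0.297. For exon length and log2 fold change it was −0.17 across the 47 and −0.208 across all genes, so longer genes tended only weakly to be lower in cKO. With the ratio at tag A it was −0.194 across the 47 and −0.218 across all genes. With the ratio at tag B it was 0.029 and −0.111, so among the 47 the weak tendency was not seen at tag B.

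**Figure D4:**
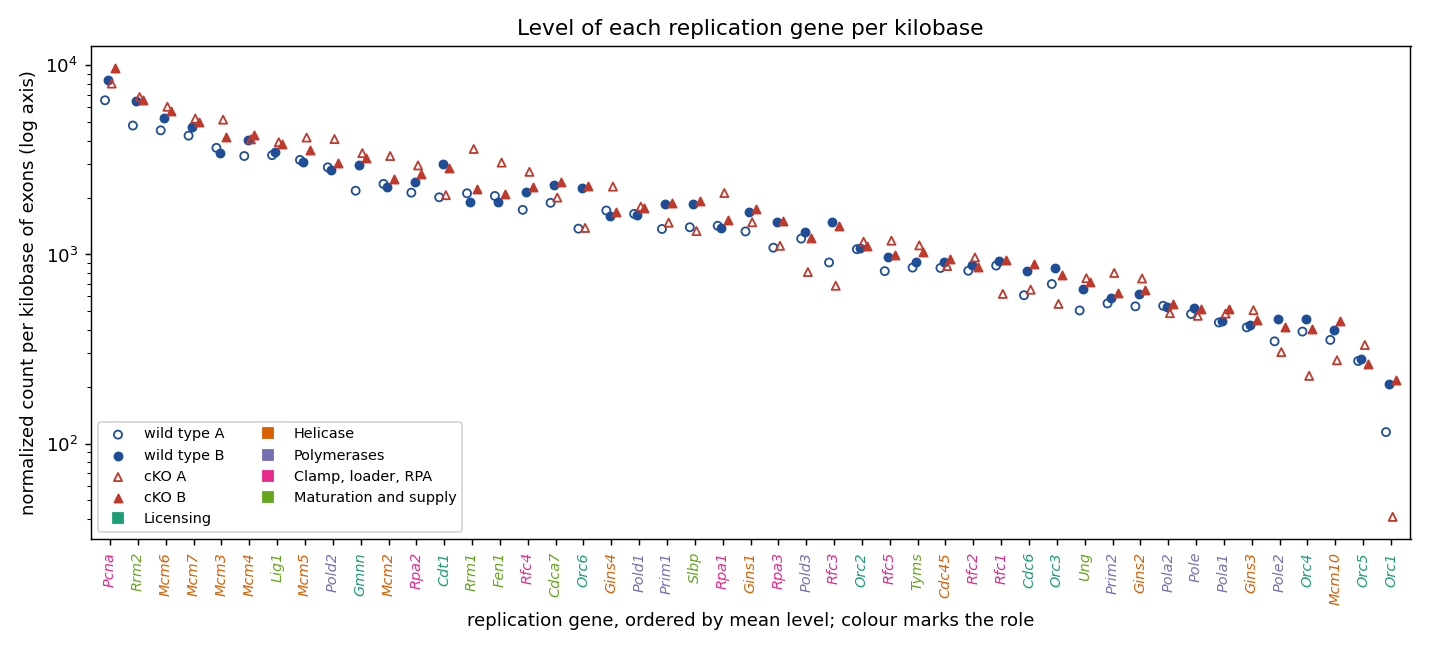
The y axis is the normalized count per kilobase of exons on a log axis, and the x axis lists the 47 replication genes by mean level, coloured by role. Circles are wild type and triangles cKO, open for tag A and filled for tag B. Pcna is the highest at 8144 on average and Orc1 the lowest at 145, with the open triangle of cKO-A far below its other libraries.

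Other genes of the replication pathway, 62 in a separate list and all tested, were less one-sided than the 47. Of them 37 had a positive log2 fold change, the median was 0.02, both cKO libraries lay above both wild-type libraries for 18 and below for 2 (Rb1 and Mcmbp), against 17.2% and 22.3% of all genes. Of the 62, 0 passed limma, 0 also at an unadjusted p under 0.05. Of 17 initiation genes 9 were positive, with a median of 0.01. The most abundant were Topbp1, an activator of origin firing, at 0.06, and Rif1, which restrains firing, at −0.67. Rif1 had 10031 and 11994 in WT-A and WT-B and 4149 and 11379.7 in cKO-A and cKO-B, so that its value came from cKO-A.

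Of 16 fork genes 6 were positive, with a median of −0.08, and the most abundant were Chtf8, of an alternative clamp loader, at 0.29 and Tipin, of the fork protection complex, at 0.30. All 8 further nucleotide supply genes were positive, with a median of 0.26 and both cKO libraries above both wild-type libraries for 5. The most abundant of these were Dut, which hydrolyses dUTP, at 0.45 and Tk1, thymidine kinase, at 0.34. Of 8 genes of chromatin assembly at the fork 7 were positive, with a median of 0.14, the most abundant being the histone chaperone Nasp at 0.02 and Uhrf1, which recognises newly copied methylated DNA, at 0.19. Of 13 E2F and pocket protein genes 7 were positive, with a median of 0.03, and E2f1 (−0.03) and Tfdp2 (0.03), the most abundant, differed little between the groups. No difference between sublists was tested.

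Markers of the gated cells differed in the same direction. All 12 genes of G2 and M phase had a positive log2 fold change, against 46.7% of all genes, with a median of 0.38 (0.62 at tag A and 0.11 at tag B). Both cKO libraries lay above both wild-type libraries for only 4 of them, against 17.2% of all genes, and the groups overlapped for 8. The difference between the groups was larger than that within either group for 0 of the 12, against 15.3% of all genes. Their summed normalized counts were 135159 and 128182 in WT-A and WT-B and 204692 and 140037 in cKO-A and cKO-B. Of 10 retinal progenitor markers 9 were higher, with a median of 0.16 and sums of 424452 and 425126 in wild type and 608476 and 472078 in cKO. Both lists were detected in all libraries, as the labelled retinal 4N cells should have them, and both sums were highest in cKO-A. The progenitor sum was carried mostly by Ccnd1, a G1 cyclin singled out after its values were seen, with 235937 and 223698 in WT-A and WT-B and 388895 and 253407 in cKO-A and cKO-B. Without it the sums were 188515 and 201428 in wild type and 219581 and 218670.0 in cKO, so that the cKO sums lay close together. These sums include Pax6, a progenitor transcription factor, which was lowest in cKO-A, at 35093, and highest in cKO-B, at 69539. Of the 10 markers only 2, Pax6 and Sox2, were higher in cKO-B than in cKO-A. The close sums thus hold differences in opposite directions.

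Markers of microglia, rods and cones were mostly lower in cKO, and endothelial markers went both ways. All 12 microglial markers were lower (median log2 fold change −2.72), with sums of 20617 and 19449.8 in WT-A and WT-B and 1224 and 8756 in cKO-A and cKO-B, and Aif1 was at 0 in cKO-A. Of 10 rod markers 8 were lower (median −0.67), with sums of 128205 and 119729.8 in wild type and 96786 and 91051.0 in cKO. All 8 cone markers were lower (median −0.77), with sums of 38874 and 49852 in wild type and 21372 and 32812 in cKO, and Arr3 was at 0 in cKO-A. The endothelial sums were 43359.9 and 38421 in wild type and 49253 and 39370.5 in cKO, with Pecam1, Cdh5, Emcn and Tie1 at 0 in 1 or both cKO libraries. Nearly all of each sum was Kdr, with 42492 and 37659 in WT-A and WT-B and 48371 and 38675 in cKO-A and cKO-B. Of the 4 endothelial markers tested 2 were higher and 2 (Pecam1 and Cdh5, at low counts) lower, with a median of −1.11. The sums are thus no measure of endothelial content. None of these markers passed limma, where 0% of all genes were called. An unadjusted limma p under 0.05 was seen for 10 microglial, 7 rod and 2 cone markers, against 1.89% of all genes. The part of these marker differences in the values of the replication genes was not tested.

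The calls depended on cKO-B. Without it, with the lone cKO-A assumed to vary as the wild-type libraries do, limma called 14 of the 47 members, where 39.8% of all genes were called. These were 8 higher genes (Fen1, Mcm2, Mcm3, Pold2, Prim2, Rfc4, Rpa1 and Rrm1) and 6 lower ones (Orc1, Orc3, Orc4, Pold3, Rfc1 and Rfc3), so the share of members called, in a shallow library that stood apart, was below that of all genes. Without cKO-A, limma called 0 of the 47, where 0.373% of all genes were called, and 44 of the 47 were higher in cKO with a median of 0.18. That value sets cKO-B against both wild-type libraries, and 37 members were higher in WT-B than in WT-A. Against WT-B alone, cKO-B was higher for 38 of the 47, with a median of 0.07. Leaving out WT-A brought the count of higher genes to 29 and the median to 0.07, and leaving out WT-B brought them to 40 and 0.27.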

How the data were processed

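The submitters' processing notes name FastQC, TopHat, HTSeq, DESeq and build mm10; versions, annotation and strand setting are not stated in the sources used here. The deposited signal is a normalized count per gene: the authors divided the reads of each library by 1 size factor, per the file headers. Every value (100%) were whole multiples of 1 read within 0.01 reads, so reads were recovered. The deposited p-value columns are the authors' own.

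Members and lists were chosen with earlier results of these data known. The test was limma 3.58.1 (two-sided, moderated with a prior that depends on the mean) on log2(normalized count + 1) of all genes whose mean reached 10, with p-values adjusted by Benjamini-Hochberg at 0.05 and 2 libraries a group. On the recovered reads edgeR 4.0.16 called 0 genes (208 at an unadjusted p under 0.05), and DESeq2 1.42.0 called 1; neither called a member. The added 1 understates the change of low genes. With 2 against 2 an exact two-sided permutation test cannot go below p = 0.333. Chi-square per degree of freedom between the libraries of a group was 67 (wild type) and 113 (cKO), so they differ beyond sampling noise. The scripts were tested on simulated data.

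The 4 library values were given for members with an unadjusted p under 0.05 and for Mcm2 to Mcm7. They were also given in each role group for the 2 members with the largest absolute log2 fold change and the one highest per kilobase. The values of Prim1, Prim2 and Slbp lay outside this rule. With those of Rif1 they were chosen after they were seen, as were the ratios between members. Of the 62 other pathway genes, those with an unadjusted p under 0.05 and the 2 of highest mean in each sublist were named. Outside that rule, Rb1 and Mcmbp were named as the 2 with both cKO libraries below both wild-type libraries. Exon lengths and overlaps were taken from GENCODE M21 (GRCm38), which holds 96.1% of the gene identifiers. A file heading calls both cKO columns replicate 2, so they carry a group and no sample number. Alternatives were pseudocounts of 0.5 and 5, no filter, a minimum mean of 50, rescaling by medians, a prior without a mean trend, edgeR, DESeq2, a replicate block, leaving out each library, and the longest transcript as gene length. R 4.3.3 and Python 3.11.15 were used.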

Additional observations from a re-analysis of the deposited data

How the results depend on the processing

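Pseudocounts of 0.5 and 5, no filter (17495 genes), a mean of at least 50 (13023 genes) and limma without the mean-dependent prior kept the direction of all 47 members, with 0 called. Median rescaling moved the median of all genes by 0.09, raised the licensing median to 0.12 and the polymerase median to 0.15, and turned Cdt1 (0.074), Pola2 (0.050), Pole (0.069) and Slbp (0.080) positive. The licensing median was 0.036 with edgeR and 0.033 with DESeq2, where Slbp was 0.0039 and 0.0013, and DESeq2 called 1 gene. Whether the shared tags mark paired experiments is not stated in the sources used here, and the deviations of same-tag libraries had a correlation of 0.258. With the tags as a replicate block limma called 0 genes (1375 at an unadjusted p under 0.05, against 274) and 0 members (1 of them, Rrm1, at an unadjusted p under 0.05), the members' median stayed at 0.18, and their lowest adjusted p was 0.515. Leaving out each library in turn gave 0 to 5768 genes and 0 to 14 members called, and 32 to 38 members whose groups did not overlap, where a lone library makes overlap rarer. The matching share of all genes was not determined with a library left out. The counts of members without overlap thus cannot be read as a rise from the 24 found with all libraries. With each library left out in turn, the medians ran from −0.31 to 0.22 (licensing), −0.083 to 0.11 (polymerases), 0.069 to 0.34 (clamp) and −0.032 to 0.12 (other pathway genes). Members whose direction turned ran from −1.91 to 0.50 (Orc1), −0.76 to 0.29 (Rfc3), −0.53 to 0.059 (Rfc1), −0.49 to 0.016 (Orc3), −0.44 to 0.24 (Mcm10), −0.39 to 0.049 (Pole2), −0.34 to 0.39 (Orc6), −0.31 to 0.27 (Cdt1), −0.28 to 0.25 (Slbp), −0.20 to 0.25 (Rpa3), −0.16 to 0.28 (Prim1), −0.12 to 0.34 (Cdc6), −0.12 to 0.036 (Pola2), −0.086 to 0.23 (Cdca7), −0.083 to 0.035 (Pole), −0.071 to 0.27 (Gins1), −0.068 to 0.26 (Orc5) and −0.015 to 0.11 (Cdc45); the cause was not tested. The 51 reads of Orc1 in cKO-A limit its value.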
